A study of Mus musculus with 23 samples.

Results

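The response of the mouse embryonal carcinoma line F9 to retinoic acid was measured as gene expression after 24 h of all-trans retinoic acid (RA) at 1e-07 M and at 0 h, the untreated start of the time course. The comparison uses 6 of the 23 samples of the series: 2 messenger RNA (mRNA) libraries taken at 24 h and 4 taken at 0 h, chosen by the times in their labels. The labels name no genetic change in these cells, which were seeded on gelatine-coated plates in medium with serum before treatment. Retinoic acid was dissolved in dimethyl sulfoxide (DMSO), and 1 library of cells given 0.001% DMSO for 24 h is set beside the results. Chromatin immunoprecipitation samples of the receptors belong to the same series and were not analysed here. The RA libraries of 6, 12 and 48 h entered the same model, where they help to set the spread, the set term and the filter, and some of their changes against the same 0 h libraries are given beside those at 24 h. Nothing in the labels says that replicates came from separate cultures, so the p-values speak of library-to-library spread alone, and that spread may be technical.

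Retinoic acid enters the nucleus and binds the retinoic acid receptors, which sit on DNA as pairs with the retinoid X receptors. The best known binding site is a direct repeat of a 6-letter motif with a spacing of 5 letters, and ligand turns the bound receptors from repressors into activators of the gene nearby. In F9 cells the treatment is a classic model of primitive endoderm formation: the cells leave the embryonal carcinoma state, stop growing as tightly packed colonies and start to make a basement membrane. The early response holds the genes of retinoid turnover and the Hox clusters, and endoderm regulators and their products come later.

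Levels are given as CPM, which are gene counts scaled to the library total and corrected by the trimmed mean of M-values (TMM). They are listed in the order of the replicate numbers. Changes are log2 of the 24 h level over the 0 h level, as fitted by the model with its set term. A change can therefore differ from the ratio of the CPM printed beside it. The value after ± is an approximate standard error, worked back from the test as the absolute change over the square root of its F statistic. The 4 libraries at 0 h held 7078941 to 10538336 counts on genes and the 2 at 24 h held 9165415 and 10722775. Replicate 1 of each time belonged to a first set of libraries. Of the reads counted either to a gene or to no gene, 57.3 to 59.43% went to no gene in that set. In the other set the share was 52.51 to 53.77%, and the model carried a term for the set. The DMSO library carries no replicate number in its label. It was counted with the first set, and its share was 57.36%. At 0 h the defining genes of embryonal carcinoma cells were present in every library: Pou5f1 lay at 1746 to 2391 CPM, Sox2 at 454 to 824 CPM and Zfp42 at 398 to 693 CPM. Replicate 1 of 24 h stood apart from replicate 2 in ways that the set term did not absorb, described after the gene groups. Most counts are therefore also given without it.

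Of 15491 genes tested, 4688 (30.3%) differed between 24 h and 0 h at an adjusted p under 0.05 by edgeR's quasi-likelihood F-test. Among them 2494 were higher at 24 h (16.1% of those tested) and 2194 were lower (14.2%). The increases reached further than the decreases: 647 increases and 185 decreases were at least 2 on the log2 scale, and 63 and 9 were at least 5. Without replicate 1 of 24 h, 3184 of 16138 genes were called (19.7%), 1814 higher (11.2%) and 1370 lower (8.49%), and 1658 of the increases (66.5%) and 1240 of the decreases (56.5%) kept their call. Leaving out either 24 h library in turn left 1150 increases and 756 decreases with a call each time. Without the set term 2014 genes were called, 1318 higher and 696 lower. Both 24 h libraries lay above all 4 libraries of 0 h for 2137 of the genes called higher (85.7%), against 19% of all genes tested, and below them for 1647 of those called lower (75.1%), against 15.2%.

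**Figure D1:**
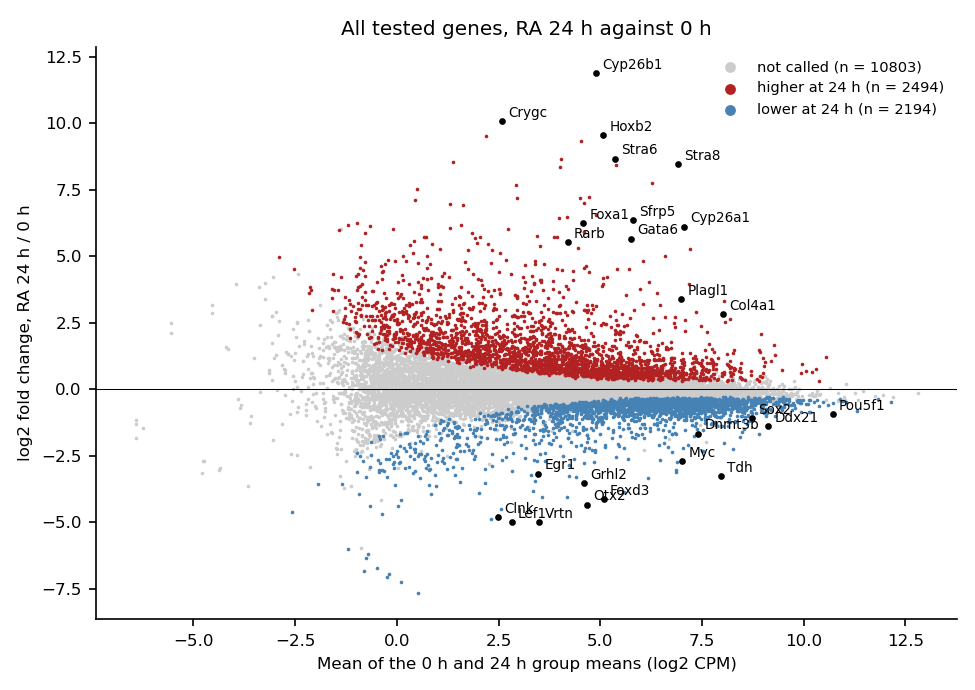
Log2 fold change between 24 h and 0 h for each tested gene, against the log2 of the mean of the 2 group means in CPM, with named genes in black, genes called higher (2494) in red, genes called lower (2194) in blue and all others in grey. The cloud reaches further up than down: 63 increases and 9 decreases are at least 5 on the log2 scale.

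Genes of retinoid uptake, breakdown and reception were among those that rose most. The retinoid list held 24 genes, of which 23 had enough counts to be tested, and 13 of these rose and 2 fell, with a median change of 1.64 against -0.02 over all tested genes. Here and below, a gene that is silent at 0 h passed the filter on low counts only through its RA libraries and so had to differ, which makes such counts a description. The lists and their members were also chosen with earlier results of these data known. Of all tested genes 16.1% were called higher and 14.2% lower, the shares to set beside each list. Of these calls 12 increases and 2 decreases held without replicate 1 of 24 h.

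Cyp26b1, an enzyme that oxidizes and so inactivates retinoic acid, went from 0 counts over all 0 h libraries to 1195 over both 24 h libraries, at 87.2 and 31.6 CPM. Set against a floor of 3 counts over the 0 h group, this was at least 699-fold higher. Its relative Cyp26a1 stood at 1.64, 6.15, 7.50 and 2.73 CPM at 0 h and at 284 and 245 CPM at 24 h, a change of 6.11 ± 0.36 (adjusted p = 5.72e-07). The DMSO library lay at 0.699 CPM for Cyp26a1, below every library at 0 h, so the 24 h values were far above all controls. Stra6, the receptor that takes retinol up from its carrier in blood, changed by 8.66 ± 0.33, from 0.298, 0.187, 0.317 and 0 CPM to 91.8 and 71.6 CPM. Dhrs3, a reductase that turns retinaldehyde back into retinol, went from 0.448, 0.559, 0.740 and 0.879 CPM to 65.1 and 30.8 CPM (5.91 ± 0.28), with the 24 h libraries apart from each other by more than the whole range at 0 h and far above it. Uptake and degradation genes thus moved the same way.

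Of the receptors, Rarb rose and Rarg and Rxrg fell. Rarb, the receptor gene long known as a direct target of its own ligand, stood at 0.597, 0.466, 0.845 and 1.17 CPM at 0 h and at 33.2 and 38.6 CPM at 24 h (5.53 ± 0.24, adjusted p = 5.14e-09), and the 2 libraries at 24 h were close to each other. Rarg fell by 0.67 ± 0.16 on the log2 scale from 647, 512, 688 and 523 CPM to 476 and 332 CPM, without overlap. Rxrg fell by 2.40 ± 0.52 on the log2 scale, from a 0 h group in which replicate 4 (7.31 to 23.5 CPM over the group) stood above the others. Leaving out 1 library at a time ended the call of Rarg (adjusted p = 0.0701 without 24 h replicate 2) and Rxrg (adjusted p = 0.0761 without 24 h replicate 2).

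The promoters of the genes named by rule were searched for the classic receptor site, and the 2 that hold it are shown because they belong to the retinoid genes described above. The motif searched was a direct repeat of AGGTCA or a variant of it (AGTTCA and GGGTCA and likewise GGTTCA) with 5 letters between the copies, on both strands, in the window from 250 bases before to 50 bases after the start of each RefSeq transcript (build GRCm38.p6). Of 192 genes named by rule 137 had a promoter in the table, and the repeat was found in the promoters of Rarb and Cyp26a1 alone; of all 32851 promoters, 32 held it (0.0974%). With a spacing of 2 letters or of 1 letter the repeat was in 0 of the 137, and in 88 (0.268%) and 73 (0.222%) of all promoters. The table covers 68.2% of the tested genes and the repeat is rare. Shares were not compared between called and other genes. The repeat is shown in capitals with a stretch before it and the bases that follow it up to the transcript start, on the strand of the gene.
Rarb, chr14:16575477-16575589 (minus strand): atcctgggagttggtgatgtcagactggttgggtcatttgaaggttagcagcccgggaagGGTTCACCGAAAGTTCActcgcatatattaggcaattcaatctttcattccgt
Cyp26a1, chr19:37697716-37697807 (plus strand): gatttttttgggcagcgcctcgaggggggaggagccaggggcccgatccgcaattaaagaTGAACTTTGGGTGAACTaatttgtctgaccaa
In Rarb the repeat reads along the gene and begins 53 bases before the start, and in Cyp26a1 it lies on the opposite strand and begins 32 bases before the start. A match of letters is a description of the sequence, and binding at these positions was not analysed here.

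Every tested gene of the Hoxa and Hoxb clusters rose, 9 of 9 and 10 of 10, while 2 further Hoxa genes were too low to test. Hox genes encode homeodomain factors that give cells their position along the body axis, and retinoic acid is known to open the clusters from their 3′ ends. Median changes were 4.83 in Hoxa and 7.21 in Hoxb, and 9 and 9 of the calls held without replicate 1 of 24 h. In Hoxc 3 of 7 tested genes rose (Hoxc4, Hoxc5 and Hoxc8, named after their values were seen), and DESeq2 called 2 higher. Hoxc8 had at most 5 counts in any of the 6 libraries. The median change in Hoxc was 4.97, 4.2 without replicate 1 of 24 h and 5.32 without replicate 2. In Hoxd 1 of 5 tested genes fell, Hoxd11, also named after its values were seen, and its call did not hold (0 fell with the replicate numbers as a block). No Hoxd gene was called higher by edgeR, and the count was 0 at an unadjusted p under 0.05 and 0 by DESeq2. The summed level of the tested Hoxb genes went from 2.11 to 7.71 CPM at 0 h to 319 and 235 CPM, while that of Hoxc reached 11.8 and 7.80 CPM from 0.298 to 0.781 CPM. The summed Hoxd genes stood at 2.11 and 3.17 CPM against 2.61 to 11.7 CPM, replicate 1 below the 0 h range and replicate 2 inside it.

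In Hoxb the steps were from near silence. Hoxb2 had 3 counts over the 4 libraries at 0 h and 1411 over the 2 at 24 h, at 73.3 and 61.4 CPM, a ratio of 826 with a 95% counting interval of 282 to 4010. Hoxb5 rose by a count ratio of 832 (230 to 6880) to 54.7 and 36.8 CPM, and Hoxb3 by 278 (76.4 to 2310) to 17.5 and 12.9 CPM. Hoxb6, with 0 counts at 0 h, was at least 109-fold higher, at 12.0 and 6.26 CPM. The antisense transcript Hoxb3os followed the genes it lies across, with a ratio of 593 (163 to 4900). These intervals and the floor cover counting error only.

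In Hoxa, Hoxa5 rose from 0, 0.280, 0.106 and 0.293 CPM to 113 and 55.8 CPM (8.44 ± 0.32), and the DMSO library held 1.12 CPM of it. The increase was 5.13 ± 0.34 for Hoxa2, 6.55 ± 0.33 for Hoxa3 and a count ratio of 392 (134 to 1910) for Hoxa4. For each of these Hox genes both 24 h libraries lay above every 0 h library. Hoxa3, Hoxa4, Hoxa5, Hoxb2, Hoxb3, Hoxb5, Hoxb6 and Hoxb3os overlap other annotated transcripts of their clusters, and whether the counting used strand is not stated, so reads of such partners cannot be told apart.

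Homeodomain partners and regulators of the Hox genes mostly rose. Of 12 tested Cdx, Meis, Pbx and Tgif genes 8 rose and 1 fell (6 and 1 without replicate 1 of 24 h). Cdx1, a caudal-type gene that is itself a retinoic acid target, went from 4.18, 0.653, 2.22 and 2.15 CPM to 60.8 and 41.0 CPM (4.39 ± 0.29). Pknox2 rose by 3.68 ± 0.27 and Meis2 by 1.78 ± 0.30, both of them cofactors that bind DNA together with Hox proteins. Tgif1, a repressor of the same homeodomain class, fell by 0.72 ± 0.12 on the log2 scale, from 174, 183, 188 and 205 CPM to 89.8 and 130 CPM. Meis1 changed by 1.61 ± 0.47, but its 0 h libraries differed widely (36.4, 5.04, 7.82 and 20.0 CPM). Its call was the only one among these named genes to depend on single libraries: Meis1 (adjusted p of up to 0.276 without 0 h replicate 1 or 3 or 24 h replicate 1 or 2).

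Among the largest increases, 2 came from genes of other tissues, the lens gene Crygc and the co-receptor gene Gfra3, and both had 0 counts in every library at 0 h. Crygc, a gamma-crystallin, reached 13.9 and 10.1 CPM and was at least 146-fold higher. Gfra3, a receptor subunit for a ligand of the GDNF family, reached 6.23 and 4.20 CPM and was at least 63.2-fold higher. Both were at 0 CPM in the DMSO library.

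Stra8, a gene that germ cells need to enter meiosis and that was first isolated as a retinoic acid response gene, rose steeply. It stood at 0.149, 0.653, 0 and 1.76 CPM at 0 h and at 257 and 225 CPM at 24 h (8.46 ± 0.44, adjusted p = 2.29e-07). Of 24 tested germline and meiosis genes, 7 rose and edgeR called 0 lower (1 at an unadjusted p under 0.05, 0 by DESeq2, 1 with the replicate numbers as a block), and 4 increases held without replicate 1 of 24 h. The share called was 29.2%, near the 30.3% of all genes. Kit, the receptor for stem cell factor, rose from 17.8, 17.7, 10.8 and 18.1 CPM to 56.7 and 104 CPM (2.36 ± 0.21), with the higher value in replicate 2. Prdm1, a repressor used by germ cell precursors and also an endoderm regulator, changed by 1.6 ± 0.35, and Sycp3, a structural protein of meiotic chromosomes, by 1.81 ± 0.49. The calls that rested on single libraries were those of Prdm1 (adjusted p = 0.289 without 24 h replicate 2) and Sycp3 (adjusted p of up to 0.0808 without 24 h replicate 1 or 2).

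Most endoderm regulators on the list rose: of 18 tested transcription factors of endoderm, 16 rose and 1 fell, with a median change of 2.29. Of these calls 12 increases and the decrease held without replicate 1 of 24 h. The members were chosen with earlier results of these data known, so the count is a description. Gata6, the factor that starts primitive endoderm in the embryo, went from 3.58, 0.653, 0.423 and 3.03 CPM to 129.6 and 85.3 CPM (5.66 ± 0.39, adjusted p = 1.62e-06). Foxa1, a forkhead factor that opens chromatin in endoderm, went from 0.597, 0.373, 0.951 and 0.586 CPM to 47.8 and 47.3 CPM (6.23 ± 0.23), and its 24 h libraries gave nearly the same level. For both genes the 24 h levels lay above the whole 0 h group, and the lower of them was in replicate 2.

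For other endoderm factors replicate 1 of 24 h gave by far the higher level. Foxq1, a forkhead factor, stood at 70.9 and 15.3 CPM against 0.187 to 1.34 CPM at 0 h (5.30 ± 0.51), and Gata4, the partner of Gata6, at 136 and 39.5 CPM against 8.39 to 15.7 CPM (2.42 ± 0.27). Without replicate 1 the change of Foxq1 was 4.47 and that of Gata4 was 1.83, and both stayed called. Foxa2 reached 8.86 and 2.40 CPM from 0.187 to 0.597 CPM (3.84 ± 0.56), still low in counts. Sox17, a marker of later primitive endoderm, reached 6.44 and 1.03 CPM from 0.391 to 0.746 CPM. Its change of 2.16 ± 0.40 became 1.43 without replicate 1, where the call was lost, so its rise at 24 h rests on that library: Sox17 (adjusted p = 0.0608 without 24 h replicate 1).

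Sox7, of the same family, was already present at 0 h (83.6, 57.3, 39.4 and 34.9 CPM) and reached 161 and 158 CPM (1.53 ± 0.21), with nearly equal values in both 24 h libraries. Klf6 rose by 0.54 ± 0.12, although replicate 1 of 24 h (154 and 205 CPM) lay within the range at 0 h (99.5 to 171 CPM). The T-box factor Eomes changed by 0.94 ± 0.24, a call not kept in every subset: Eomes (adjusted p of up to 0.0790 without 24 h replicate 1 or 2). The member that fell was Nr5a2, a nuclear receptor that pluripotent cells use to express Pou5f1, by 1.46 ± 0.23 on the log2 scale, from 82.5, 76.8, 69.6 and 80.0 CPM to 16.5 and 38.7 CPM.

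**Figure D2:**
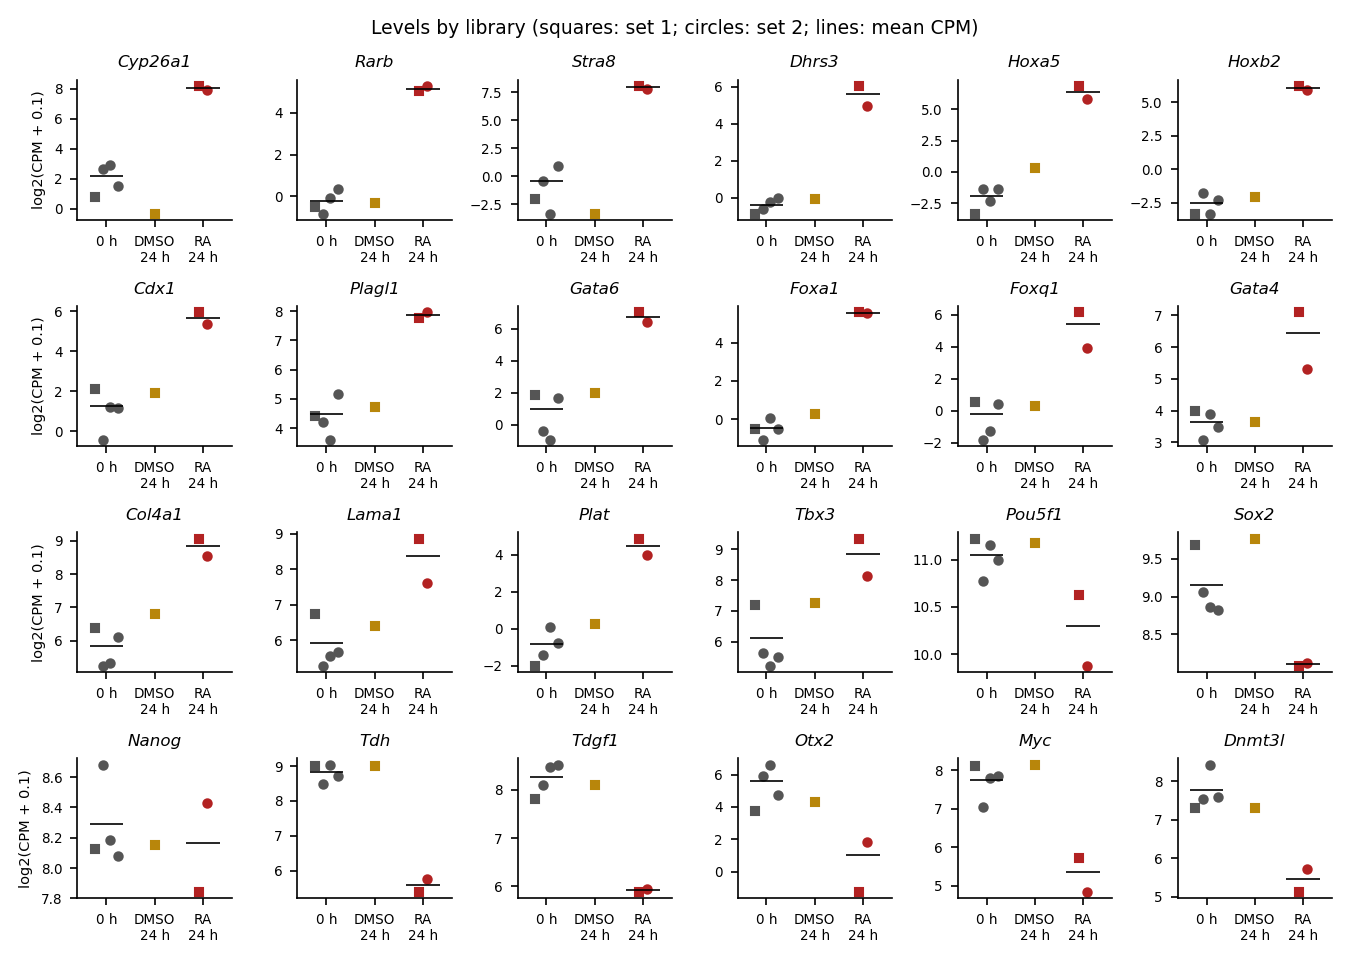
Levels of 24 genes as log2(CPM + 0.1) in each library at 0 h, in the library given DMSO for 24 h and at 24 h of RA. Squares are libraries of the first set, with the DMSO library counted in it, circles those of the other set, and lines are group means of CPM. Rarb and Foxa1 have nearly equal values in the 2 libraries at 24 h, Gata4 and Lama1 are higher in replicate 1, and Nanog at 24 h has 1 value below all 0 h values and 1 among them.

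Markers of primitive endoderm were partly raised at 24 h. Of 14 tested primitive endoderm markers 6 rose and 0 were called lower (0 also at an unadjusted p under 0.05 and 0 by DESeq2), and 5 of the increases held without replicate 1 of 24 h. Pdgfra, the growth factor receptor that marks primitive endoderm, went from 2.24, 0.187, 0.528 and 2.54 CPM to 20.6 and 6.00 CPM (2.79 ± 0.51). Srgn, a small proteoglycan, rose by 2.98 ± 0.46, the receptor Fgfr3 by 2.04 ± 0.30 and Pth1r, the parathyroid hormone receptor of the parietal lineage, by 2.2 ± 0.34. Dab2, an endocytic adaptor of extraembryonic endoderm, was not called (1.46 ± 0.81, adjusted p = 0.216). Its 0 h libraries spread over 0.466 to 12.2 CPM, and replicate 2 of 24 h (23.9 and 11.8 CPM for the 2 libraries) lay within them. Without replicate 4 of 0 h its change was 2.44 ± 0.52 and was called (adjusted p = 0.00535), as it was with the replicate numbers as a block (2.35 ± 0.67, adjusted p = 0.0345).

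Visceral endoderm, which surrounds the embryo and makes serum proteins, was represented by 13 tested genes of 22 listed, of which 4 rose and 0 were called lower (1 at an unadjusted p under 0.05 and 1 by DESeq2). Of the increases 3 held without replicate 1 of 24 h. The share called was 30.8%, near the 30.3% of all genes. Classic products of the tissue were too low to test: Afp, Apoa2, Apoa4 and Apoc2 had 0 counts in all 6 libraries, and Apoa1 and Trf had at most 1 in any of them. The members that rose were the transcription factors Hnf4a (named after its values were seen) and Hhex and the secreted antagonists Lefty1 and Dkk1. Lefty1, an inhibitor of Nodal, went from 29.4, 18.7, 19.9 and 25.1 CPM to 313 and 95.3 CPM (2.72 ± 0.28), while the DMSO library stood at 72.3 CPM, above every 0 h library and below both RA libraries. Hhex, of the anterior visceral endoderm, changed by 1.09 ± 0.27, and Dkk1, a Wnt antagonist, by 3.50 ± 0.70. Reads of Lefty1 can be shared with its close copy Lefty2, which was not called. Calls here that depended on a 24 h library were those of Hhex (adjusted p = 0.0529 without 24 h replicate 2) and Dkk1 (adjusted p = 0.0523 without 24 h replicate 1).

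Among 15 tested markers of parietal endoderm 8 rose and 1 fell, but only 5 of the increases held without replicate 1 of 24 h. Stra6, described above, is on this list and had its largest change. Plat, the tissue-type activator whose secretion is a standard test of F9 differentiation, went from 0.149, 0.280, 0.951 and 0.488 CPM to 29.3 and 15.7 CPM (5.38 ± 0.35), and Plau, the urokinase type, from 0, 0.187, 1.16 and 0.488 CPM to 7.18 and 7.88 CPM (4.15 ± 0.64). The decrease was that of Fst, follistatin, which binds activin: it went from 4.33, 13.6, 9.83 and 11.1 CPM to 0 and 0.514 CPM (-4.86 ± 0.58). Both 24 h values lay below every 0 h value.

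Collagen IV and laminin α1, the framework of the basement membrane, rose. Of 23 tested basement membrane genes 9 rose and 0 were called lower (1 at an unadjusted p under 0.05, 1 by DESeq2 and 1 with the replicate numbers as a block), and 8 of the increases held without replicate 1 of 24 h. Col4a1 went from 83.6, 37.9, 39.9 and 69.7 CPM to 538 and 376 CPM (2.83 ± 0.23), and its neighbour Col4a2, transcribed from the same promoter region in the other direction, from 54.2, 18.0, 17.8 and 41.8 CPM to 386 and 203 CPM (2.90 ± 0.30). The groups did not overlap, and the DMSO library (112 CPM for Col4a1) lay above the highest 0 h value. Lama1 went from 106, 38.9, 46.9 and 50.5 CPM to 465 and 197 CPM (2.14 ± 0.13), with the values of the first set higher at both times. Fbln1, fibulin, rose from a tight 0 h group of 59.2, 53.1, 54.5 and 54.4 CPM to 368 and 235 CPM (2.36 ± 0.13). The other members called higher, named after their values were seen, were Lamb2, Lamc1, Nid1, Hspg2 and Npnt.

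Lamb1, the partner chain that laminin needs for assembly, was not called (0.41 ± 0.18, adjusted p = 0.110). Replicate 2 of 24 h (137 and 92.7 CPM for the 2 libraries) lay below replicate 4 of 0 h (79.4, 65.5, 71.9 and 105 CPM), and without the latter the change of 0.59 ± 0.13 was called (adjusted p = 0.00508), as it was with the replicate numbers as a block (0.65 ± 0.13, adjusted p = 0.00247). At 12 h of RA the fitted change of Lamb1 was -0.94 (adjusted p = 0.00673) and at 48 h it was 3.24 (adjusted p = 2.99e-08), both against the same 0 h libraries.

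Among genes that modify and fold collagen 8 of 19 tested members rose and 0 were called lower (1 at an unadjusted p under 0.05, 1 by DESeq2 and 1 with the replicate numbers as a block), with 6 increases kept without replicate 1 of 24 h. Loxl2, a cross-linking enzyme of collagen IV, went from 10.6, 9.70, 11.8 and 10.6 CPM to 59.5 and 32.5 CPM (2.01 ± 0.19), while DMSO alone stood at 25.5 CPM. The prolyl hydroxylase subunits P4ha1 and P4ha2 rose by 1.11 ± 0.16 and 1.19 ± 0.21. Serpinh1, the collagen chaperone, changed by 1.46 ± 0.32 to 523 and 402 CPM, from 0 h values spread over 81.4 to 253 CPM. Its call was lost in part of the subsets: Serpinh1 (adjusted p of up to 0.0780 without 24 h replicate 1 or 2).

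Integrins, the matrix receptors, split evenly, with 3 of 15 higher and 3 lower (3 and 2 without replicate 1 of 24 h). Itgb3 rose by 2.38 ± 0.28, from 1.86 to 3.08 CPM to 13.0 and 12.9 CPM, Itgb4, a laminin receptor subunit, by 1.43 ± 0.27 and Itga5, the fibronectin receptor subunit, by 0.72 ± 0.11. Itgb7 fell by 1.65 ± 0.32 and Itgb5 by 0.65 ± 0.16 on the log2 scale (DMSO library at 62.7 CPM for Itgb5, RA libraries at 57.7 and 56.9 CPM), and Itga1, named after its values were seen, was the remaining decrease. A 24 h library decided the call of Itgb5 (adjusted p = 0.0540 without 24 h replicate 2).

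The epithelial regulators Grhl2 and Esrp1 fell, and of the desmosome genes Dsc2 and Dsp rose while Pkp2 and Jup, named after their values were seen, fell. Of 28 tested genes of epithelial adhesion and splicing 3 rose and 8 fell (3 and 4 without replicate 1 of 24 h), and 5 rose with the replicate numbers as a block. Grhl2, a master regulator of epithelial genes, went from 17.6, 43.4, 85.1 and 35.6 CPM to 0.211 and 6.77 CPM (-3.53 ± 0.50), and Esrp1, which sets epithelial splicing, from 7.46, 30.6, 70.7 and 31.3 CPM to 0.317 and 5.48 CPM (-3.25 ± 0.47). Both were lower in both 24 h libraries than in any 0 h library, and both were nearly absent from replicate 1. The DMSO library (17.6 CPM of Grhl2 and 8.11 CPM of Esrp1) lay at the low end of the 0 h values. It was near replicate 1 of 0 h, a library of the set it was counted with. Dsc2 rose from 0.149, 1.4, 1.06 and 0.586 CPM to 9.18 and 25.1 CPM (4.68 ± 0.30) and Dsp from 22.4, 43.6, 27.8 and 16.1 CPM to 137 and 197 CPM (2.71 ± 0.27). Cdh2, N-cadherin, changed by 0.91 ± 0.21, from 9.93 to 14.6 CPM at 0 h to 25.5 and 25.4 CPM with RA, and the single DMSO library of 24 h stood at 25.0 CPM, next to the RA libraries. Its call was lost in a subset: Cdh2 (adjusted p = 0.0536 without 24 h replicate 2).

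Of 28 tested genes of the actin cytoskeleton 8 rose and 0 were called lower (0 also at an unadjusted p under 0.05 and 0 by DESeq2), yet the median change was 0.04, and -0.01 without replicate 1 of 24 h, where 6 increases held. The share called was 28.6%, against 30.3% of all genes. Myh10, a non-muscle myosin, rose by 0.87 ± 0.15, Lgals1, galectin, by 0.68 ± 0.15 and Ezr, which ties actin to the membrane, by 0.64 ± 0.10. Ccn1, a matrix protein induced by tension and serum, changed by 1.31 ± 0.36. Its call depended on libraries of the first set: Ccn1 (adjusted p of up to 0.209 without 0 h replicate 1 or 24 h replicate 1).

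Pluripotency genes fell unevenly. Of 45 tested factors and markers 25 fell and 4 rose, with a median change of -0.69, and 17 decreases and 3 increases held without replicate 1 of 24 h. Pou5f1 (Oct4), the central factor, went from 2391, 1746, 2279 and 2044 CPM to 1582 and 940.2 CPM (-0.95 ± 0.18, adjusted p = 0.00171), and both 24 h values lay below every 0 h value. Sox2, its partner, went from 824, 535, 463 and 454 CPM to 271 and 279 CPM (-1.09 ± 0.19), with the highest 0 h value in replicate 1 and no overlap between the groups. Zfp42 (Rex1) fell by 0.97 ± 0.17 on the log2 scale, to 293 and 267 CPM. In libraries of whole cultures, fewer cells that express a gene and less of its RNA in each cell cannot be told apart.

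Nanog, the third core factor, was not called: its 0 h levels of 279, 411, 291 and 271 CPM overlapped those of 229 and 345 CPM at 24 h (-0.06 ± 0.18, adjusted p = 0.841). Against the same 0 h libraries its change was 0.66 at 6 h, 0.60 at 12 h (adjusted p = 0.0407) and -1.18 at 48 h (adjusted p = 0.000254). Replicate 1 of 24 h lay below every 0 h library and replicate 2 among them.

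Other members fell much further. Otx2, a homeodomain factor of primed pluripotency and forebrain, went from 13.3, 59.8, 97.3 and 26.6 CPM to 0.317 and 3.51 CPM (-4.33 ± 0.62). Tdh, the threonine dehydrogenase on which mouse pluripotent cells depend, went from 515, 358, 525 and 421 CPM to 41.7 and 54.1 CPM (-3.27 ± 0.20, adjusted p = 1.07e-07), far outside the 0 h range in both libraries. Pim2, a kinase gene, fell by 3.11 ± 0.37 on the log2 scale to 19.9 and 21.1 CPM, Tdgf1, a co-receptor of Nodal, by 2.33 ± 0.34 to 59.0 and 61.7 CPM and Fgf4, the growth factor of the inner cell mass, by 1.70 ± 0.24 to 31.9 and 73.9 CPM. Without replicate 1 of 24 h the change of Fgf4 was -1.39 and that of Pim2 was -3.44.

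The members that rose were Tbx3, Klf4, Lefty1 and Fut4, the last named after its values were seen. Tbx3, a T-box factor linked to both self-renewal and endoderm, went from 147, 49.1, 37.0 and 45.2 CPM to 653 and 279.7 CPM (2.54 ± 0.21). The first set was higher at both times, and the DMSO library, counted with that set, stood at 152 CPM. Klf4, a reprogramming factor also expressed in epithelia, changed by 1.01 ± 0.25 from 9.30 to 27.5 CPM to 50.3 and 24.9 CPM, and the groups overlapped. Its call was decided by a 24 h library: Klf4 (adjusted p = 0.0917 without 24 h replicate 1).

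Developmental regulators were among the genes named by rule for their decreases. Lef1, the nuclear effector of Wnt signals, went from 5.67, 14.7, 25.2 and 9.67 CPM to 0 and 0.685 CPM (-4.99 ± 0.77), and Vrtn, known from vertebral number in pigs, from 8.21, 29.3, 26.1 and 24.2 CPM to 0.528 and 0.514 CPM (-4.99 ± 0.61). Clnk, an adaptor protein of immune receptors, went from 11, 9.04, 10.1 and 12.8 CPM to 0 and 0.685 CPM (-4.81 ± 0.58), Evx1, a homeobox gene of the primitive streak, fell by 4.52 ± 0.91 and Foxd3, a forkhead repressor that keeps stem cells undifferentiated, by 4.13 ± 0.33 on the log2 scale. Foxd3 stood at 7.91 and 2.23 CPM at 24 h and at 109 CPM in the DMSO library, the latter above its 0 h range of 35.3 to 104 CPM. Evx1 overlaps its antisense transcript Evx1os. Gm17232, a gene without a known role, fell by 4.07 ± 0.27 on the log2 scale, but it overlaps Tdh, whose reads cannot be told apart from its own without strand. With Fst and Otx2 these were the 8 largest decreases among genes of at least 5 CPM at 0 h, with no overlap between the groups and calls that hold without replicate 1 of 24 h; genes of lower count had deeper fitted decreases.

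**Figure D3:**
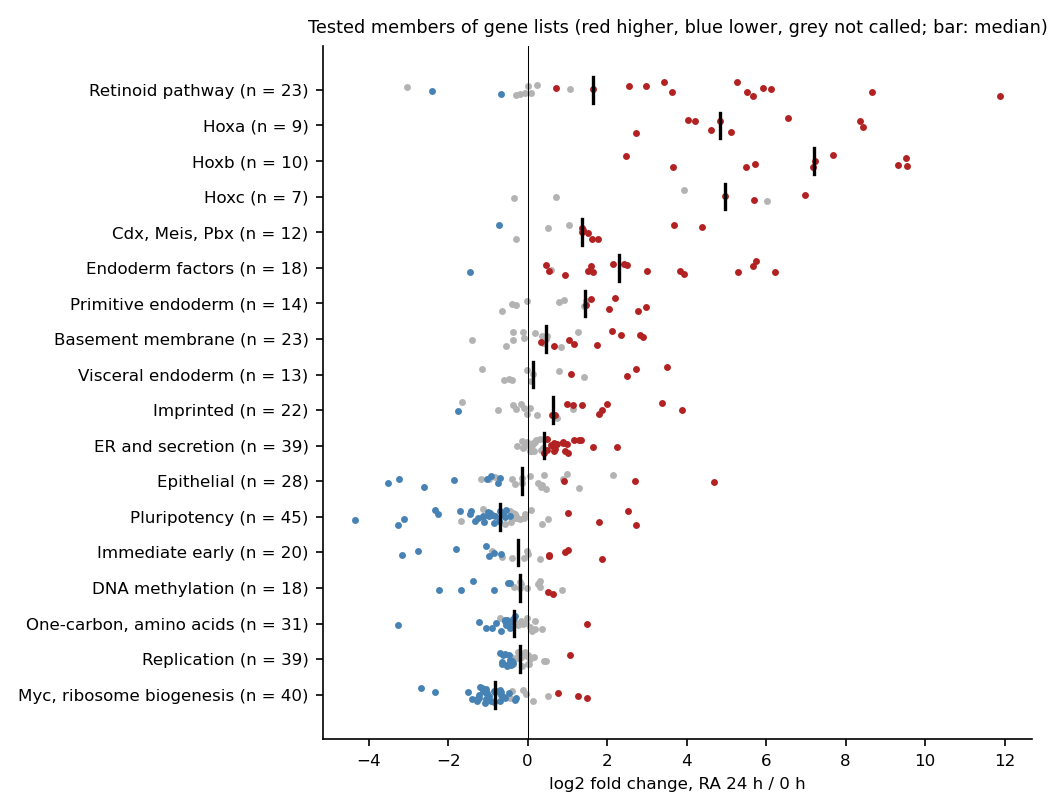
Log2 fold change between 24 h and 0 h of each tested member of 18 gene lists, with members called higher in red, called lower in blue and others in grey, and the median as a bar. Hoxb (median 7.21), Hoxa and endoderm factors lie to the right, and the Myc and ribosome biogenesis list (median -0.83) and the pluripotency list lie to the left. The lists were chosen with earlier results of these data known.

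Ligands and feedback genes of signalling pathways moved in both directions. In the Nodal and bone morphogenetic protein (BMP) list 8 of 29 tested genes rose and 7 fell (5 and 5 without replicate 1 of 24 h). Nodal itself was not called, at 69.4, 122, 164 and 151 CPM and 109.9 and 90.1 CPM (-0.10 ± 0.23, adjusted p = 0.774), and its value turned on single libraries: without replicate 1 of 24 h it was called lower (-0.63 ± 0.19, adjusted p = 0.0365), and without replicate 2 its change was 0.43 and not called (adjusted p = 0.141). Its co-receptor Tdgf1 and the activin antagonist Fst were lower, and its antagonist Lefty1 was higher, as was the receptor Acvr1b (1.03 ± 0.18). Bmp4 fell by 1.53 ± 0.23 on the log2 scale, from 387, 117, 170.3 and 102 CPM to 99.7 and 55.5 CPM, while Smad6, an inhibitor of BMP signals, rose by 3.01 ± 0.24, from 1.80 to 3.64 CPM to 27.9 and 19 CPM. Bmp7 changed by 1.46 ± 0.43 and the decoy receptor Bambi by 0.82 ± 0.24. With the replicate numbers as a block Bmp7 was not called (adjusted p = 0.0502). Leaving out single libraries ended the calls of Bmp7 (adjusted p of up to 0.139 without 24 h replicate 1 or 2) and Bambi (adjusted p of up to 0.200 without 0 h replicate 1 or 24 h replicate 1).

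Among fibroblast growth factor (FGF) genes some ligands rose and others fell, and Spry2 and Spry4 fell. Of 30 tested genes 9 rose and 7 fell (7 and 6 without replicate 1 of 24 h). Beside Fgf4, the ligand gene Fgf17 fell, by 3.50 ± 0.63 on the log2 scale to 0.422 and 0.514 CPM, whereas Fgf3, a ligand made by parietal endoderm, rose by 2.28 ± 0.41 to 7.39 and 6.26 CPM. The receptor Fgfr3 rose with it. Spry2 and Spry4 encode inhibitors that FGF signals induce; most other inhibitors on the list were not called, and Il17rd, named after its values were seen, rose. Spry2 went from 453, 228, 220.1 and 175 CPM to 123 and 81.9 CPM (-1.54 ± 0.16), and Spry4 from 537, 377, 429 and 402 CPM to 206 and 196 CPM (-1.21 ± 0.14), both without overlap. Etv4, a transcription factor target of the pathway, fell by 0.96 ± 0.16 on the log2 scale, although replicate 1 of 24 h (260.4 and 128 CPM) lay within the 0 h range (234 to 413 CPM). Sdc4, a surface proteoglycan, fell by 1.62 ± 0.30, a call that was not kept throughout: Sdc4 (adjusted p = 0.0584 without 24 h replicate 2).

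The Wnt antagonist Sfrp5 rose and the effector Lef1 fell, in a list with 10 higher and 8 lower of 40 tested genes, of which 5 and 3 held without replicate 1 of 24 h. Sfrp5, a secreted Wnt antagonist of visceral endoderm, went from 1.64, 1.03, 1.37 and 1.56 CPM to 132 and 91.3 CPM (6.35 ± 0.25, adjusted p = 2.21e-09). Among ligands Wnt9a rose by 3.05 ± 0.43 and Wnt6 fell by 1.89 ± 0.29 on the log2 scale. Decreases of Wnt5a (-1.53 ± 0.49), of the receptor genes Fzd5 (-0.78 ± 0.22) and Lgr4 (-0.68 ± 0.18) and of the effector Tcf7 (-0.67 ± 0.21) were called but less secure. With the replicate numbers as a block Tcf7 was not called (adjusted p = 0.0593). Single libraries ended the calls of Wnt5a (adjusted p of up to 0.184 without 0 h replicate 1 or 3 or 24 h replicate 1 or 2), Fzd5 (adjusted p of up to 0.187 without 0 h replicate 1 or 24 h replicate 1), Lgr4 (adjusted p = 0.146 without 24 h replicate 1), Tcf7 (adjusted p of up to 0.207 without 0 h replicate 1 or 4 or 24 h replicate 1) and Dkk1 (adjusted p = 0.0523 without 24 h replicate 1).

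In the Notch list 2 of 18 tested genes rose and 2 fell (2 and 1 without replicate 1 of 24 h). This was 22.2% called, against 30.3% of all genes. Jag1, a ligand, went from 19.7, 25.5, 18.8 and 23.4 CPM to 2.32 and 3.94 CPM (-2.69 ± 0.28), with no overlap, and the receptor Notch2 rose by 0.82 ± 0.14, to 53.7 and 41.1 CPM, against 36.6 CPM in the DMSO library and 22.7 to 28.1 CPM at 0 h. The inhibitor Numb changed by 0.55 ± 0.14 and the ligand Jag2 by -0.91 ± 0.27. For Jag2 the DMSO library (10.1 CPM) lay between the 24 h libraries. Within the first set, with which that library was counted, Jag2 stood at 10.0 CPM at 0 h and at 6.65 CPM with RA. Both calls were lost in subsets: Numb (adjusted p = 0.0747 without 24 h replicate 2) and Jag2 (adjusted p of up to 0.160 without 24 h replicate 1 or 2).

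Dnmt3b and Dnmt3l, which set DNA methylation in early embryos, fell. Of 18 tested genes of DNA methylation 6 fell and 2 rose (5 and 0 without replicate 1 of 24 h). Dnmt3b, a de novo methyltransferase, went from 193, 239.8, 323 and 297 CPM to 67.2 and 84.7 CPM (-1.67 ± 0.15), and its cofactor Dnmt3l from 158, 184, 343 and 191 CPM to 34.8 and 52.6 CPM (-2.22 ± 0.27). Zfp57, which keeps imprints methylated, fell by 0.85 ± 0.16 on the log2 scale. Tet1, the enzyme that oxidizes methylcytosine in stem cells, fell by 1.36 ± 0.31, with 62.7 and 196 CPM at 24 h: both values lay below the 0 h range of 299 to 359.9 CPM, but replicate 1 was far lower than replicate 2, and without it the change was -0.77. Mbd2 (0.63 ± 0.16) and Uhrf2 (0.52 ± 0.16, with the DMSO library at 66.3 CPM and the RA libraries at 65.7 and 94.2 CPM) were the increases, and neither was kept in all subsets: Mbd2 (adjusted p of up to 0.0567 without 24 h replicate 1 or 2) and Uhrf2 (adjusted p of up to 0.152 without 0 h replicate 2 or 24 h replicate 1 or 2).

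Chromatin genes moved both ways, 4 of 28 Polycomb and remodelling genes higher and 9 lower (3 and 6 without replicate 1 of 24 h). Cbx8, a chromodomain subunit of Polycomb complex 1, rose by 2.59 ± 0.53 to 7.60 and 3.26 CPM, Bmi1, another subunit, by 1.05 ± 0.22 and the remodelling ATPase Smarca2 by 1.5 ± 0.32. Hmga1, an architectural protein of dividing cells, fell by 0.91 ± 0.15 on the log2 scale. Phc2 changed by 0.65 ± 0.16, a call tied to a 24 h library: Phc2 (adjusted p = 0.103 without 24 h replicate 1).

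Imprinted genes, expressed from a single parental copy and mostly growth regulators, gave 10 increases and 1 decrease among 22 tested, and all of these calls held without replicate 1 of 24 h. H19, a long RNA abundant in extraembryonic tissue, went from 1.34, 5.22, 9.09 and 4.69 CPM to 66.0 and 56.2 CPM (3.89 ± 0.36), and Plagl1, a zinc finger factor that activates other imprinted genes, from 21.3, 18.6, 12.1 and 36.1 CPM to 218 and 249 CPM (3.39 ± 0.32). Sgce rose by 2.00 ± 0.22 and Nnat by 1.88 ± 0.29, with 35.6 and 27.3 CPM of Nnat at 24 h of RA and 20.4 CPM in the DMSO library. Magel2 fell by 1.76 ± 0.42 on the log2 scale, from 4.03 to 9.08 CPM to 1.48 and 1.89 CPM. A block by replicate number gave 2 lower genes. The list has 31 entries, of which 26 were found in the tables.

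Genes of ribosome production mostly fell. Of 40 genes of the Myc family and ribosome production 31 fell and 3 rose, with a median change of -0.83, and 27 and 3 of the calls held without replicate 1 of 24 h. Myc went from 279, 132, 225 and 233 CPM to 53 and 28.5 CPM (-2.69 ± 0.25, adjusted p = 6.47e-06) and Mycn from 105, 230.4, 258 and 156 CPM to 17.9 and 46.0 CPM (-2.34 ± 0.27), both without overlap. The DMSO library held 94.8 CPM of Mycn, below its 0 h range and above both RA libraries. Rrn3, which recruits RNA polymerase I to ribosomal DNA, went from 432 to 597 CPM to 218 and 185 CPM (-1.49 ± 0.14), and Ddx21, a nucleolar helicase, from 763 to 891 CPM to 214 and 388 CPM (-1.4 ± 0.17). Of the members that rose, Mxd4 (1.27 ± 0.15) and Mxi1 (0.77 ± 0.15) encode repressors that compete with Myc for its partner. Mycl rose by 1.5 ± 0.29, a call that depended on replicate 2: Mycl (adjusted p = 0.0746 without 24 h replicate 2).

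Part of the genes for proteins of the ribosome itself fell. Of 77 tested cytosolic ribosomal protein genes 30 were called lower, with a median change of -0.47, and of 76 mitochondrial ones 32, with a median of -0.37. In both lists 0 were called higher, with 0 at an unadjusted p under 0.05 in that direction and 0 by DESeq2. Of these calls, 21 cytosolic and 21 mitochondrial calls held without replicate 1 of 24 h, but 5 and 3 when either 24 h library was left out in turn, and 21 mitochondrial genes were called lower with the replicate numbers as a block. The 24 h libraries differed in these lists: the median difference of replicate 1 over replicate 2 was 0.37 and 0.29 on the log2 scale. The median change was -0.63 and -0.52 without replicate 1, and -0.32 and -0.21 without replicate 2. Many ribosomal protein genes have processed copies, and how shared reads were counted is not stated. Few nuclear genes of oxidative phosphorylation were called, with 2 higher and 1 lower of 78 tested (3.85% called, against 30.3% of all genes). These were Ndufa4l2 and Cox7a1, higher, and Cox7c, lower, named after their values were seen. The 24 h libraries differed in this list too, with a median difference of replicate 1 over replicate 2 of 0.367. Its median change was -0.0824, -0.255 without replicate 1 and 0.129 without replicate 2.

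Among genes of one-carbon metabolism and amino acid supply 15 of 31 tested were lower and 1 higher (10 and 1 without replicate 1 of 24 h). Beside Tdh, the serine hydroxymethyltransferase Shmt1 went from 189, 206, 225 and 258 CPM to 90.2 and 114 CPM (-1.05 ± 0.14). The increase was that of Slc1a5, a glutamine transporter, from 221 to 262 CPM to 836 and 603 CPM (1.49 ± 0.10, adjusted p = 3.42e-07). Mthfd2l, a mitochondrial folate enzyme, changed by -1.22 ± 0.43, and its call was lost in several subsets: Mthfd2l (adjusted p of up to 0.349 without 0 h replicate 1 or 2 or 24 h replicate 1).

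Among DNA replication genes 14 of 39 were called lower and 1 higher, with 7 of the decreases kept without replicate 1 of 24 h and 3 when either 24 h library was left out. Mcm10 fell by 0.65 ± 0.12 on the log2 scale, from 176 to 217 CPM to 96.1 and 149.6 CPM, and Mcm7, a helicase subunit, by 0.65 ± 0.13. E2f2, a driver of S phase genes, changed by -0.69 ± 0.15. The increase was that of Rpa1, the large subunit of the single-strand binding protein, from 379, 387, 346 and 362 CPM to 948 and 659 CPM (1.08 ± 0.12, adjusted p = 3.2e-05), far above the spread at 0 h. Its change was 0.87 at 6 h, 1.16 at 12 h and -0.37 at 48 h against the same 0 h libraries. With the replicate numbers as a block 2 genes were higher. Rpa1 overlaps Smyd4 in the annotation. Calls ended in subsets for Mcm7 (adjusted p = 0.0502 without 24 h replicate 2) and E2f2 (adjusted p = 0.0578 without 24 h replicate 1).

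Of 30 mitosis genes 3 were called higher and 4 lower, a share of 23.3% against 30.3% of all genes, and without replicate 1 of 24 h 2 increases and 0 decreases held. A block by replicate number gave 1 lower gene. Cdc25b, the phosphatase that starts mitosis, rose from 16.7, 18.7, 19.6 and 20.2 CPM to 43.6 and 40.4 CPM (1.15 ± 0.15). Cyclin genes Ccnb1 (-0.37 ± 0.13) and Ccnb2 (0.39 ± 0.11) went opposite ways by small steps. The DMSO library stood at 124 CPM for Ccnb2 against 125 and 127 CPM with RA and 83.9 to 113 CPM at 0 h, and at 94.1 CPM for Ccnb1 against 76.8 and 91.5 and 90.6 to 142 CPM. Mki67, the marker of dividing cells, stood at 0.36 ± 0.12, with the DMSO library (301 CPM) between the RA libraries (238 and 385 CPM). Ccna2, Mad2l1 and Kif20a, named after their values were seen, were the other decreases. Under it Ccnb1 and Mki67 were not called (adjusted p = 0.0983 and 0.092). All 3 calls were lost in subsets: Ccnb1 (adjusted p of up to 0.258 without 0 h replicate 1 or 2 or 4 or 24 h replicate 1 or 2), Ccnb2 (adjusted p of up to 0.133 without 0 h replicate 1 or 24 h replicate 1) and Mki67 (adjusted p of up to 0.617 without 0 h replicate 2 or 3 or 4 or 24 h replicate 2).

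Among inhibitors, D cyclins and targets of p53 7 of 30 rose and 9 fell (5 and 8 without replicate 1 of 24 h). Ccng2, a cyclin of resting cells, went from 5.52, 8.76, 7.61 and 9.67 CPM to 19 and 23.6 CPM (1.56 ± 0.19), and Cdkn1b, the p27 inhibitor, from 63.3, 76.2, 50.1 and 62.1 CPM to 102 and 109.8 CPM (0.81 ± 0.16). Sesn1, a sestrin, rose by 1.34 ± 0.15. Cdkn1a, the p21 inhibitor, was not called, at 42.7, 49.0, 44.7 and 49.6 CPM and 43.1 and 36.4 CPM (-0.20 ± 0.17, adjusted p = 0.408). Cdk6 fell by 1.69 ± 0.30 on the log2 scale, to 2.43 and 4.11 CPM, whereas its partner Ccnd2, cyclin D2, changed by 1.76 ± 0.35, to 102 and 227 CPM. Cdkn2a (0.94 ± 0.27) and Gadd45b (1.01 ± 0.27) were also called higher. Lost in subsets were the calls of Ccnd2 (adjusted p = 0.152 without 24 h replicate 2), Cdkn2a (adjusted p of up to 0.155 without 0 h replicate 1 or 24 h replicate 1) and Gadd45b (adjusted p of up to 0.0656 without 24 h replicate 1 or 2).

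Of the secretory pathway, 20 of 39 tested genes of the endoplasmic reticulum and vesicle transport rose and 0 were called lower (0 also at an unadjusted p under 0.05 and 0 by DESeq2), and 17 held without replicate 1 of 24 h. Xbp1, a transcription factor of the unfolded protein response, went from 46.3, 49.4, 47.6 and 51.7 CPM to 106 and 135 CPM (1.34 ± 0.12, adjusted p = 3.18e-06), and Creb3l2, which raises collagen transport genes, from 9.10, 6.15, 3.49 and 5.57 CPM to 34.2 and 27.3 CPM (2.26 ± 0.21). Pdia5, a disulfide isomerase, rose by 1.64 ± 0.15 and Kdelr3, a retrieval receptor, by 1.30 ± 0.25. All 4 were higher in both 24 h libraries than in any library at 0 h or with DMSO for 24 h.

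Lysosomal genes moved both ways, 10 of 36 higher and 6 lower, of which 10 and 2 held without replicate 1 of 24 h. The median change was 0.244, and 0.351 without replicate 1. At an unadjusted p under 0.05 by edgeR, 16 were higher and 6 lower, so the decreases named below are the smaller part. The transcription factors that drive lysosome genes fell: Tfe3 by 0.95 ± 0.12, from 138 to 158 CPM to 79.7 and 74.6 CPM, and Tfeb by 1.27 ± 0.28 on the log2 scale. The remaining named decreases, Ctsc (-1.41 ± 0.48), Ctsd (-0.37 ± 0.12), Man2b1 (-0.49 ± 0.17) and the membrane protein gene Scarb2 (-1.04 ± 0.24), were weak, and for Ctsd and Man2b1 the DMSO library (260.4 and 40.7 CPM) lay between the 24 h libraries. In the first set alone, with the DMSO library counted in it, Ctsd stood at 278 CPM at 0 h, 260.4 with DMSO and 251 with RA. Man2b1 in that set stood at 42.8, 40.7 and 34.8 CPM. With the replicate numbers as a block Ctsd and Man2b1 were not called (adjusted p = 0.0767 and 0.0988). Subsets ended the calls of Tfeb (adjusted p = 0.0527 without 24 h replicate 2), Ctsc (adjusted p of up to 0.373 without 24 h replicate 1 or 2), Ctsd (adjusted p of up to 0.211 without 0 h replicate 2 or 24 h replicate 1 or 2), Man2b1 (adjusted p of up to 0.152 without 0 h replicate 2 or 4 or 24 h replicate 1 or 2) and Scarb2 (adjusted p = 0.0842 without 24 h replicate 1).

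Few lipid genes changed, 3 of 31 higher and 0 lower by edgeR (0 at an unadjusted p under 0.05 and 0 by DESeq2), a share of 9.68% against 30.3% of all genes. They were Scd2 (0.76 ± 0.18), Fads1 (0.76 ± 0.15) and Sc5d (0.63 ± 0.17), a pair of desaturases and a sterol enzyme. The DMSO library lay between the RA libraries for each of them: Scd2 stood at 665 to 1046 CPM at 0 h, 1910 and 1400 CPM at 24 h of RA and 1816 CPM with DMSO, and the DMSO values of Fads1 (249.6 CPM) and Sc5d (35.1 CPM) lay between the RA values of 353 and 167 and of 32.4 and 36.8 CPM. These increases over 0 h were therefore also present with the solvent alone, in 1 library. With the replicate numbers as a block 11 lipid genes were higher. Subsets ended the calls of Scd2 (adjusted p = 0.0756 without 24 h replicate 2) and Sc5d (adjusted p = 0.104 without 24 h replicate 2).

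The glucose transporter genes Slc2a3 and Slc2a1 were called higher. Of 31 genes of glycolysis and the hypoxia response 8 rose and 2 fell, but 3 and 1 held without replicate 1 of 24 h. The share called was 32.3%, near the 30.3% of all genes. The glucose transporter Slc2a3 went from 949, 1121, 850.4 and 806 CPM to 1593 and 2566 CPM (1.20 ± 0.16) and Slc2a1 changed by 0.68 ± 0.16. Vegfa, the vascular growth factor, rose by 1.22 ± 0.18 to 288 and 254 CPM, and Pdk1, a kinase that holds pyruvate back from mitochondria, fell by 1.14 ± 0.15 on the log2 scale to 74.9 and 95.2 CPM. Pfkm changed by -0.40 ± 0.13 and was not called with the replicate numbers as a block (adjusted p = 0.0913). Subsets ended the calls of Slc2a1 (adjusted p = 0.0764 without 24 h replicate 2) and Pfkm (adjusted p of up to 0.188 without 0 h replicate 2 or 3 or 4 or 24 h replicate 1 or 2).

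Immediate early genes, which answer growth factors within minutes, were split into 5 higher and 7 lower of 20 tested (2 and 6 without replicate 1 of 24 h). Egr1 went from 17.9, 20.9, 12.4 and 29.3 CPM to 1.69 and 2.40 CPM (-3.17 ± 0.45) and Nr4a1, an orphan nuclear receptor, from 122 to 199.8 CPM to 104 and 65.9 CPM (-1.05 ± 0.14). Jun rose from 7.46, 9.14, 17.2 and 14.3 CPM to 53.5 and 27.1 CPM (1.86 ± 0.37), and Klf6 rose as given above. Jund (0.94 ± 0.28) gave 572 and 90.7 CPM at 24 h, 58.1 to 181 CPM at 0 h and 219.6 CPM with DMSO, so only replicate 1 was high. Ier5 changed by -1.80 ± 0.45 and the stress factor Atf3 by 0.53 ± 0.17. The calls of Klf4 and of these were lost in subsets: Ier5 (adjusted p = 0.107 without 24 h replicate 2), Atf3 (adjusted p of up to 0.158 without 0 h replicate 2 or 24 h replicate 1 or 2), Jund (adjusted p of up to 0.448 without 0 h replicate 1 or 2 or 24 h replicate 1) and Klf4 (adjusted p = 0.0917 without 24 h replicate 1).

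Markers of other lineages were checked because F9 cultures can hold cells outside endoderm. Of 19 tested neural markers 7 rose and 4 fell, and 5 and 1 held without replicate 1 of 24 h; their summed level was 494 to 667 CPM at 0 h and 607 and 459 CPM at 24 h, with replicate 1 inside the 0 h range and replicate 2 below it. Gap43, a growth cone protein, rose by 2.41 ± 0.34 to 91.0 and 57.8 CPM and Sox3 by 2.30 ± 0.45 to 24.4 and 12.1 CPM, while Neurog3 fell by 1.86 ± 0.39 on the log2 scale. The neurofilament genes Nefl (-2.08 ± 0.54) and Nefm (-2.09 ± 0.55) were called lower, as was Neurod1, named after its values were seen. The defining neurogenic genes Neurog1 and Neurog2 were too low to test, with at most 0 and 2 counts in any of the 6 libraries. Subsets ended the calls of Nefl (adjusted p of up to 0.186 without 0 h replicate 1 or 24 h replicate 1 or 2) and Nefm (adjusted p of up to 0.185 without 24 h replicate 1 or 2).

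Of 16 tested mesoderm and blood markers 6 rose and 0 were called lower (0 also at an unadjusted p under 0.05 and 0 by DESeq2), 3 of them without replicate 1 of 24 h. All called members lay under 5 CPM, and the list's summed level was 32.5 to 47.6 CPM at 0 h against 47 and 63.8 CPM, the first inside that range and the second above it. Trophoblast markers gave 3 increases and 2 decreases of 14, of which 1 each held without replicate 1 of 24 h. Bmp4 and Tead4 (-1.41 ± 0.43), a factor that trophoblast needs, were the decreases, and the placental genes Prl3d1, Prl2c2, Tpbpa and Plac1 had 0 counts in all 6 libraries. The part of other cell types in any result was not tested. Subsets ended the calls of Tead4 (adjusted p of up to 0.263 without 0 h replicate 1 or 2 or 3 or 24 h replicate 1 or 2) and Eomes (adjusted p of up to 0.0790 without 24 h replicate 1 or 2), the latter counted among the increases with Gcm1 and Gata2, both named after their values were seen. Of long noncoding RNAs, 50 of 386 tested rose and 34 fell (36 and 12 without replicate 1 of 24 h), 21.8% called against 30.3% of all genes.

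Some genes had smaller changes at 48 h than at 24 h, with all times compared to the same 0 h libraries. The change of Cdx1 was 4.09, 4.13, 4.39 ± 0.29 and 1.58 at 6, 12, 24 and 48 h, and that of Mycn was -1.61, -2.41, -2.34 ± 0.27 and 0.06. Fst showed -2.93, -4.34, -4.86 ± 0.58 and 0.24, and Jag1 -1.68, -1.98, -2.69 ± 0.28 and -0.90. Others had larger changes at 48 h. H19 stood at -0.14 at 12 h, 3.89 ± 0.36 at 24 h and 7.03 at 48 h, Foxq1 at -0.23, 5.30 ± 0.51 and 8.03 and Dab2 at -1.32, 1.46 ± 0.81 and 6.65. Differences between times were not tested here.

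Replicate 1 of 24 h differed from replicate 2 beyond the difference between the sets. In a model with a further term for it, 2 of 15491 genes were called by edgeR (0.0129%), both lower in replicate 1: Tet1 and Zfp936, a zinc finger gene at 1.58 and 26.5 CPM in the 2 libraries and 14.8 to 31.8 CPM at 0 h. At an unadjusted p under 0.05 there were 2045 genes, against 122, 170 and 688 for the same term at 6, 12 and 48 h. The other genes with the smallest p were also lower in replicate 1: Smg1, a kinase of RNA decay, stood at 48.1 and 122 CPM, Ppip5k2, an inositol phosphate kinase, at 28.4 and 104 CPM, Zfp280c at 5.07 and 34.8 CPM and Mapk4 at 1.27 and 9.51 CPM. For Smg1, Ppip5k2 and Zfp936 replicate 1 lay below every 0 h library and replicate 2 within or above them. None of these 3 was called between 24 h and 0 h, but without replicate 2 all were called lower, by -0.94, -1.33 and -3.19 (adjusted p = 0.00134, 0.000236 and 7.82e-05). Zfp280c (-1.22 ± 0.32) and Mapk4 (-1.76 ± 0.47) were called, Zfp280c with replicate 2 inside its 0 h range of 30.6 to 61.4 CPM and the DMSO library at 34.5 CPM.

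The difference between the 24 h libraries followed the length of genes. Genes were ranked by genomic span in the GRCm38 annotation, which was available for 92.1% of those tested, and split into 5 equal classes with median spans of 2.5, 9.81, 20.8, 42 and 116 kb. The median log2 difference of replicate 1 over replicate 2, beyond the set term, fell from 0.188 in the shortest genes through 0.127, -0.000477 and -0.141 to -0.266 in the longest. At 6, 12 and 48 h the same medians lay between -0.0459 and 0.0522. The median change between 24 h and 0 h ran from -0.137 to 0.141 over the classes, from -0.204 to 0.265 without replicate 1, and between -0.0941 and -0.00375 without replicate 2. From the shortest to the longest class, the median change against 0 h went from -0.0474 to 0.0336 at 6 h. It went from -0.118 to 0.153 at 12 h and from -0.267 to 0.387 at 48 h. The part of gene length in the results above was not tested.

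**Figure D4:**
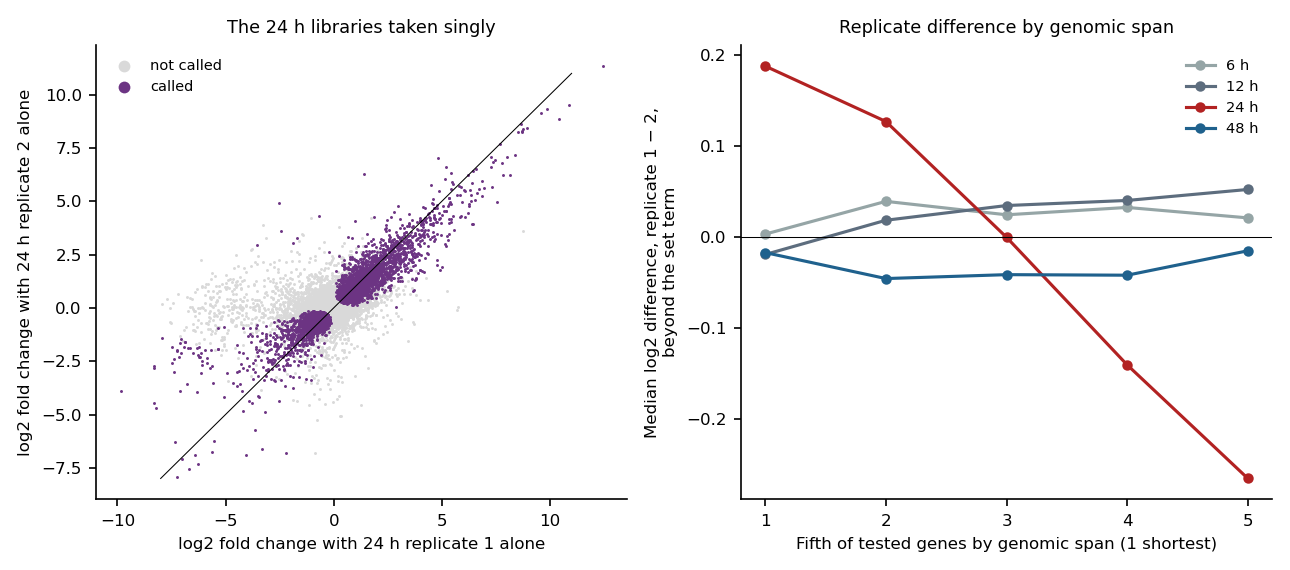
Left, log2 fold change of each gene against 0 h with only replicate 1 (horizontal) or only replicate 2 (vertical) of 24 h, with called genes in purple and the line of equality. Right, median log2 difference of replicate 1 over replicate 2, beyond the set term, in 5 classes of genes by genomic span at each time of RA: the 24 h line falls from 0.188 to -0.266 while the others stay between -0.0459 and 0.0522.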

How the data were processed

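Libraries were made from polyadenylated RNA with a TruSeq kit and sequenced as single reads of 72 or 50 bases, per the labels' protocols, without naming the length for each library. HTSeq, DESeq and TopHat2 2.0.7 are listed with mouse build mm9 per the submitters' processing notes; the strand setting and the handling of shared reads are not given in the sources used here. The authors deposited raw counts per gene for each library, with 36814 genes, 5 entries that name no gene (72.52 to 76.78% of each table's total) and were left out, and gene symbols matched here for 31841.

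edgeR 4.0.16 (R 4.3.3) was run on the counts of 12 mRNA libraries (0 h and RA at 6, 12, 24 and 48 h), with terms for group and library set, TMM factors and filterByExpr by group, and tested with the robust quasi-likelihood F-test and Benjamini-Hochberg adjustment over all tested genes. On simulated data of 15399 genes, 66% of 100 genes changed 2-fold and 89% of 100 changed 4-fold were recovered, with 16 false calls. The simulated libraries held no other change and no difference of 24 h replicate 1 beyond the set term. The changed genes were not drawn from those of lowest level. These figures are therefore not error rates of the calls on the real libraries. The members and lists were chosen with earlier results of these data known. Named were the 8 largest changes each way among genes with at least 5 CPM in the higher group, no overlap between the groups and a call that held without replicate 1 of 24 h, a fixed set of genes, up to 4 called members per list with at least 5 CPM, members against a list's direction and 6 genes that differ between the 24 h replicates; some genes that the rule names are not reported here. Libraries with the same replicate number deviated together (correlations of 0.689 to 0.846 over 10 pairs of groups). The numbers follow the same split as the set, so these values cannot tell pairing by number from the set difference. No replicate pair agreed within sampling noise (chi-square per degree of freedom of 10.07 to 34.05 at 0 h and 61.95 at 24 h). Replicates number 4 and 2 and depth was 7078941 to 10722775 counts; intervals on count ratios are exact and cover counting error only. Alternatives changed the normalization, filter, set term, pairing, libraries or tool (DESeq2 1.42.0). Promoters and genomic spans came from RefSeq tables of GRCm38, used for sequence, span and names. In that annotation many other named genes also overlap another gene. Among them are Stra6 (Ccdc33), Dhrs3 (Vps13d), Foxa1 (Ttc6), Kdelr3 (Ddx17), Tcf7 (Skp1), Nnat (Blcap), Dnmt3l (Aire), Sox2 (Sox2ot), Gata6 (Gata6os) and Plagl1 (Hymai). Reads of such partners cannot be told apart here. Figures were drawn with matplotlib 3.10.9.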

Additional observations from a re-analysis of the deposited data

Results flagged for a closer look

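Among the 192 genes named, 11 had 1 library at 0 h far from the other 3 (the gap to the nearest of them took up nearly the whole range). Chance flags about 1 in 20 such groups.

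Replicate 1 stood apart for 5 of them. It held the highest level of Tbx3 (147 CPM against 37.0 to 49.1), Mxd4 (20.7 against 15.9 to 16.6), Foxa2 (0.597 against 0.186 to 0.211) and Hoxb3os (0.298 against 0), and the lowest of Sycp3 (0.746 against 2.93 to 3.26). Replicate 1 is the library of the first set at 0 h. Replicate 2 was high for Nanog, at 411 CPM against 271 to 291 CPM. Replicate 3 was low for Kit, at 10.8 CPM against 17.7 to 18.1 CPM, and for the N-cadherin gene Cdh2, at 9.93 CPM against 14.5 to 14.6 CPM. Replicate 4 was high for Rxrg, at 23.5 CPM against 7.31 to 9.30 CPM, and for Lgals1, at 93.9 CPM against 73.7 to 76.4 CPM, and low for Tfeb, at 15.1 CPM against 24.2 to 24.9 CPM. The cause was not tested.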

How the results depend on the processing

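Of 4688 genes called (2494 higher and 2194 lower), 2014 (1318 and 696) were called without the library-set term, 2670 (1543 and 1127) with only the 6 libraries compared, and 743 (580 and 163) without both the term and replicate 1 of 24 h, a setting chosen after seeing the data. Asking also for a change of at least 1 on the log2 scale left 2075 (1525 and 550). Leaving out 1 library at a time gave 3184 to 4595 calls, 1783 to 2436 higher and 1370 to 2159 lower. With the replicate block by number in place of the set, 4358 genes were called, 3787 of them shared with the main design, and Dab2 and Lamb1 gained a call (adjusted p = 0.0345 and 0.00247), while 7 of the 192 named genes lost theirs. Counts under the other settings (RLE factors 4779, no filter 4441, 1 CPM in 4 libraries 4577, all 14 libraries 4688, DESeq2 4871) were within 1.5 times. The higher share of calls was 53.2%, 65.4% without the set term, 78.1% without both and 48.4% without replicate 2 of 24 h. No gene called both in the main design and in an alternative changed direction. Among named genes that were called, Jund changed sign, to -0.18 (adjusted p = 0.931), without replicate 1 of 24 h and the set term, and no other did under these settings. Calls were lost by 52 named genes without the set term, 34 without replicate 1 and 36 without replicate 2 of 24 h. With 2 libraries at 24 h, 1 of them standing apart, low-count genes are the least certain. Causes were not tested.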
